A study of Mus musculus with 12 samples.

Results

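The laminin chains Lama2, Lama4, Lama5, Lamb1, Lamb2 and Lamc1, the heparan sulfate proteoglycans perlecan (Hspg2) and agrin (Agrn), and the nidogens Nid1 and Nid2 were followed in mouse embryonic fibroblasts (MEFs). These are 10 of the 20661 genes in the count tables, chosen by their names as the basement membrane genes of these families, and all 10 were found and passed the filter on low counts in all 9 comparisons. The families were selected on sight of their RNA, footprint and TE values in these libraries, with no threshold, so counts over them are a description and not independent evidence for a direction. The study asked how loss of the ARF tumor suppressor, a product of Cdkn2a, changes translation, by RNAseq and ribosome profiling of the same 3 groups with 2 replicates in each. WT MEFs, which the labels give as C57BL/6J, were transduced with a lentivirus carrying a scrambled hairpin (WT-shSCR) or a hairpin against ARF (WT-shARF), and Arf-/- MEFs of strain B6.129X1-Cdkn2atm1Cjs/KaiJ carried the scrambled hairpin (Arf-/- shSCR). All cells were at passage 4, and all had been selected with puromycin. In the Arf-/- strain a selection cassette stands in place of the ARF-specific first exon, in every cell type and from before birth. The study's methods name B6129SF2/J as the WT strain, and in either case genotype and strain cannot be told apart here. Nothing in the labels says that the replicates came from separate embryos or cultures, so the p-values measure the spread between these libraries, which may be technical.

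Basement membranes are thin sheets of matrix beneath epithelia and endothelia and around muscle, fat and nerve. A laminin is a trimer, in many cases cross-shaped, of an alpha, a beta and a gamma chain that assembles inside the cell. Many of the secreted trimers form a network bound to integrins and dystroglycan at the cell surface. Nidogens link laminin to type IV collagen, and perlecan and agrin add heparan sulfate chains that hold growth factors. Fibroblasts make many of these proteins, both for the basement membranes of their neighbours and for their own interstitial matrix.

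Libraries held between 1578627 and 3989908 reads on coding sequence in RNAseq and between 2544319 and 5157572 in ribosome profiling. No pair of libraries was identical. Cdkn2a went against one label. Its RNA was 43.4 ± 2.03 CPM (counts per 1000000 with TMM scaling, mean ± SD, n = 2) in WT-shSCR, 656 ± 17.3 CPM in WT-shARF and 29.9 ± 3.21 CPM in Arf-/- shSCR. The count of this gene also holds the INK4A product of the same locus, so it does not measure ARF alone, and the group is called here the WT-shARF-labelled libraries. At the protein level, the study reported knockdown and knockout of ARF in MEFs by immunoblot. It described the hairpin as one that leaves INK4A expression unchanged. Fibroblast markers were strong, with Vim, Col1a1 or Col1a2 the highest of the list in every group, although Pdgfra and Dcn, which also mark fibroblasts, lay at or under 24.03 CPM in all libraries. Endothelial markers summed to between 11.5 and 41.4 CPM over 7 genes and Schwann cell markers to at most 6.43 CPM over 5 genes. The 7 macrophage markers summed to 503 and 531 CPM of footprints in WT-shSCR, to 157 and 188 CPM in the WT-shARF-labelled libraries and to 34.6 and 47.8 CPM in Arf-/- shSCR. The 8 epithelial or mesothelial markers stood at 91.4 and 112 CPM of footprints in WT-shSCR and at 184 and 185 CPM in Arf-/- shSCR. Their footprints in the WT-shARF-labelled libraries, at 73.2 and 95.5 CPM, overlapped WT-shSCR. In RNA these markers stood at 91.9 and 94.8 CPM in WT-shSCR and at 159 and 181 CPM in Arf-/- shSCR. The WT-shARF-labelled libraries lay below WT-shSCR in RNA, at 56.8 and 69.1 CPM. The 5 smooth muscle markers stood at 18246 and 18910.0 CPM of footprints in WT-shSCR, at 13983 and 14821 CPM in the WT-shARF-labelled libraries and at 19311 and 19843 CPM in Arf-/- shSCR. In RNA the smooth muscle markers stood at 15144 and 15178 CPM in WT-shSCR and lower, at 14329 and 14369 CPM, in Arf-/- shSCR. The part of these markers in the results was not tested. In bulk samples, fewer cells of a type and less RNA per cell cannot be told apart.

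The members are long genes. Their longest coding sequences run from 3735 nt in Nid1 to 13149 nt over 97 coding exons in Hspg2, each longer than at least 93.2% of all genes, whose median is 1230 nt. The study was about mRNAs that begin with a cytosine followed by an unbroken run of pyrimidines (5′-TOP mRNAs), so the annotated starts of members are shown. RefSeq promoter windows on GRCm38.p6 were at hand for 7 members, with 8 windows in all, and not for Lama4, Lamc1 and Nid2. In the sequences below, the 10 bases before the annotated start are in lower case and the 20 bases from it are in capitals, read 5′ to 3′ on the strand of the gene.
Hspg2, chr4:137468793-137468822, plus strand: aggactcggcAGGACAGCGAGCTGGTGGCT
Nid1, chr13:13437592-13437621, plus strand: gacgggaggcGGGAGGTGAGGAGGGACTGC
Lama5, chr2:180225840-180225869, minus strand: cccaaactagACTTGCCGGGCTCCTGCGGT
Lamb1, chr12:31265283-31265312, plus strand: ttctaattccCTTCTTTGGGCCGGTGGGCT
Lama2, chr10:27616923-27616952, minus strand: ggggactgccCTTTCTCACCCACCCTTGGG
These windows are shown because Hspg2 was the member whose TE changed, Nid1 and Lama5 changed in footprints, and Lamb1 and Lama2 were the members whose annotated start was a C followed by at least 4 bases that are each C or T on the transcribed strand. Such a start stood in 2.51% of all 32851 windows and in 14 of the 76 ribosomal protein windows. How closely annotated starts match the true starts was not tested. The Lama2 start shown lies inside the span of the gene in GENCODE (chr10:26980036-27619758, minus strand). That annotation therefore also holds a start further upstream. The letters GGGCGG, searched on both strands, stood in 7 of the 8 member windows and in 35.7% of all windows. The letters TATAAA stood in 0 of the 8 and in 13.6% of all. These are matches of letters and not binding sites.

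Per kilobase of coding sequence, perlecan, nidogen 1 and the laminin beta 1 chain were the most abundant members, and the alpha 2 chain was the least abundant in WT-shSCR. In WT-shSCR RNA the order was Hspg2 at 223 CPM per kb, Nid1 at 179, Lamb1 at 126, Lamc1 at 49.8, Lamb2 at 30.3, Lama5 at 22.2, Agrn at 13.3, Nid2 at 12.7, Lama4 at 10.98 and Lama2 at 5.41 CPM per kb. Agrn and Nid2 overlapped between replicates in this order and the other neighbours did not. In WT-shSCR footprints Nid1 led at 395 ± 24.8 CPM per kb and Hspg2 followed at 302 ± 16.9 CPM per kb. There too Nid2 and Agrn, at 25.6 and 23.7 CPM per kb, were the only neighbours whose replicates overlapped. Lama4 and Lama2 stood last in footprints as well, at 7.91 and 4.81 CPM per kb. In Arf-/- shSCR footprints Nid2, at 45.8 ± 5.57 CPM per kb, had passed Lamb2 and Lama5, and Lama4 and Agrn overlapped. In the WT-shARF-labelled libraries, the footprints of Lama2, at 9.77 ± 1.38 CPM per kb, stood above those of Lama4, at 7.64 ± 0.221 CPM per kb, so Lama4 was last there.

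**Figure D1:**
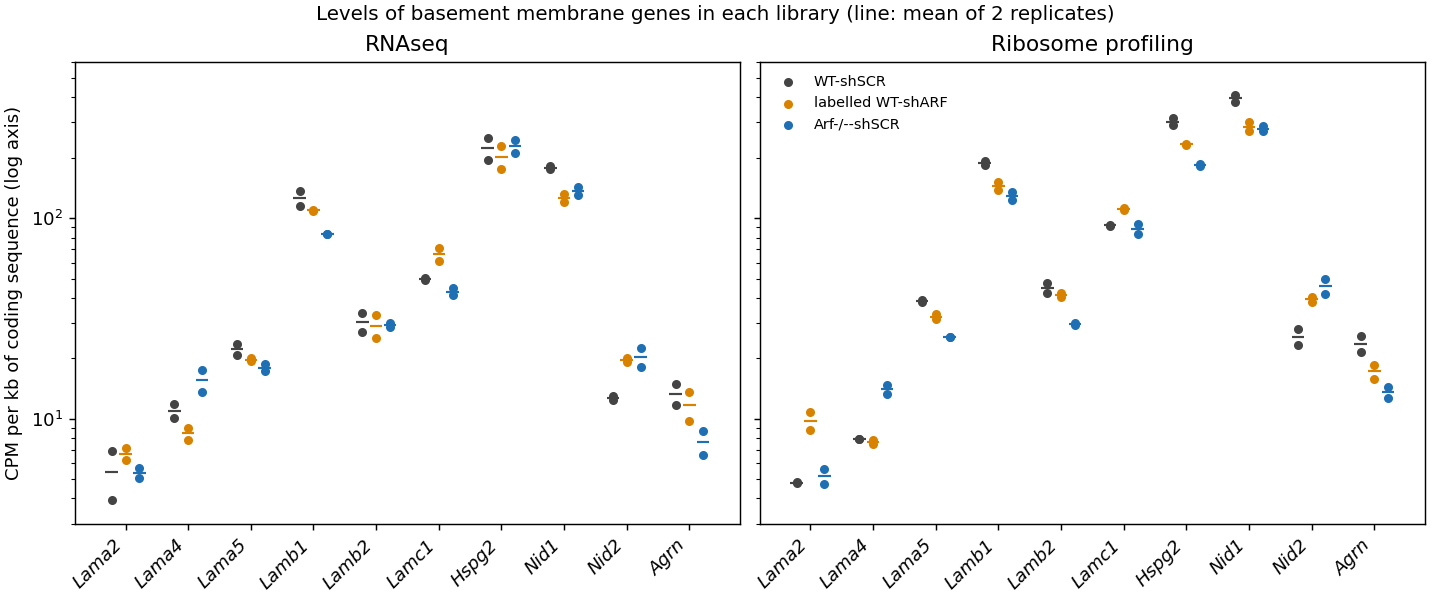
Level of each gene in CPM per kb of its longest coding sequence (vertical log axis) in RNAseq (left) and ribosome profiling (right). Points are single libraries and lines are means of 2 replicates for WT-shSCR, the WT-shARF-labelled libraries and Arf-/- shSCR. Nid1 and Hspg2 lead and Lama2 and Lama4 are lowest in WT-shSCR, and the Nid2 points of both other groups lie above those of WT-shSCR.

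The 10 genes together took 0.785% ± 0.0201 (SD, n = 2) of all footprint counts in WT-shSCR, 0.646% ± 0.0118 in the WT-shARF-labelled libraries and 0.549% ± 0.0134 in Arf-/- shSCR. Their shares of RNA counts were 0.501% ± 0.0664, 0.492% ± 0.0294 and 0.475% ± 0.00879 in the same order. The footprint shares of the 3 groups did not overlap, while the RNA shares did. Hspg2 alone made up between 43.8% and 50.7% of the footprint counts of the 10 genes.

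Changes were tested by edgeR's quasi-likelihood F test with Benjamini-Hochberg adjustment over all genes, and a gene is called changed at an adjusted p under 0.05. In Arf-/- shSCR against WT-shSCR, 6 members fell and 2 rose in footprints, where 18.5% of all 10737 genes tested were called. The median of the members was -0.51 on the log2 scale, beside -0.00 over all genes. In RNA the same comparison called 2 members lower and 0 higher, beside 7.93% of all genes, and the median of the members was -0.13. At an unadjusted p under 0.05, 5 members passed in RNA, and DESeq2 called 1 lower and 0 higher, beside 4.38% of all genes. In the WT-shARF-labelled libraries against WT-shSCR, 4 members fell and 3 rose in footprints, beside 11.1% of all genes, with a median of -0.19. In RNA 1 member fell and 1 rose, beside 7.28% of all genes, with a median of -0.16, and DESeq2 called 1, beside 5.52% of the genes it gave an adjusted p. Both comparisons share the WT-shSCR libraries, so the direction they have in common rests partly on the same samples. Leaving out either WT-shSCR ribosome profiling library left 0 members called in Arf-/- shSCR footprints, and 0 of all genes were called then. The fold changes of the 8 called members kept their sign in each of those fits. The median of the members was -0.48 without replicate 1 and -0.50 without replicate 2. In RNA the calls were lost without either WT-shSCR library, with medians of -0.18 (without replicate 1) and -0.20 (without replicate 2). Without replicate 2 of the WT-shARF-labelled footprint libraries, 4 members were called in that comparison.

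**Figure D2:**
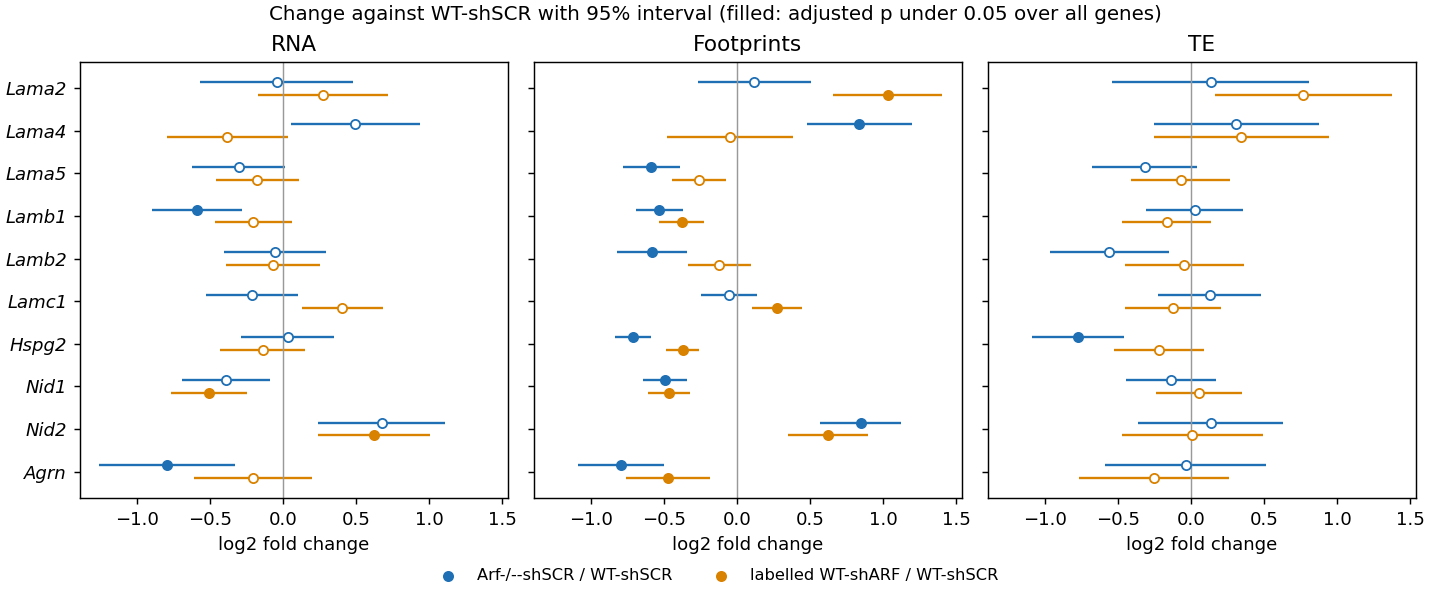
Log2 fold change against WT-shSCR (horizontal axis) of RNA, footprints and TE for Arf-/- shSCR and for the WT-shARF-labelled libraries. Lines are 95% intervals from the fit of 2 against 2 libraries (2 and 2 per assay for TE), and filled points have an adjusted p under 0.05. In footprints most points lie left of 0, Nid2 lies right of it in both comparisons, and Hspg2 in Arf-/- shSCR is the single filled point for TE.

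Perlecan is the large heparan sulfate proteoglycan of basement membranes and cartilage (Hspg2, chr4:137468769-137570630, plus strand). Its footprints were 4128 and 3814 CPM in WT-shSCR, 3094 and 3044 CPM in the WT-shARF-labelled libraries, and 2381 and 2441 CPM in Arf-/- shSCR. The 3 groups did not overlap, with WT-shSCR highest and Arf-/- shSCR lowest. Hspg2 footprints fell by 38.8% in Arf-/- shSCR (log2 fold change -0.71 ± 0.060 SE, adjusted p = 1.85e-10 by edgeR) and fell by 22.6% in the WT-shARF-labelled libraries (log2 fold change -0.37 ± 0.056 SE, adjusted p = 1.47e-05). Its RNA was 2572 and 3283 CPM in WT-shSCR, 3024 and 2309.5 CPM in the WT-shARF-labelled libraries, and 2771 and 3220.1 CPM in Arf-/- shSCR. The RNA groups overlapped throughout, and the RNA log2 fold change in Arf-/- shSCR was 0.03 with a 95% interval from -0.29 to 0.35.

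**Figure D3:**
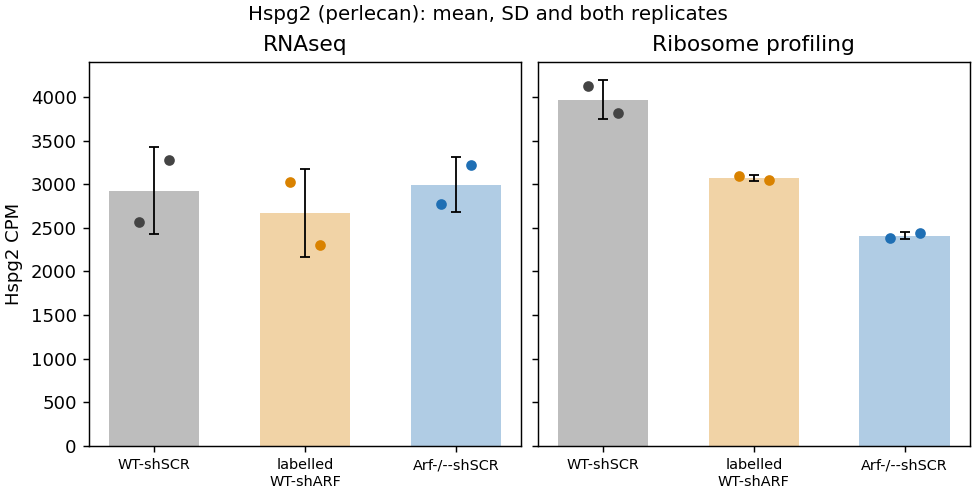
Hspg2 level in CPM (vertical axis from 0) in RNAseq (left) and ribosome profiling (right). Bars are means, error bars SD and points the 2 replicates of each group. Footprints step down from 3971 CPM in WT-shSCR to 3069 CPM and 2411 CPM, while the RNA bars of all groups overlap within their SD.

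Translation efficiency (TE) is the footprint level over the RNA level, and its change was tested as an assay by condition interaction in 8 libraries. The ratio of footprint CPM to RNA CPM of Hspg2 was 1.36 in WT-shSCR, 1.15 in the WT-shARF-labelled libraries and 0.805 in Arf-/- shSCR. Among 4829 genes with at least 100 counts per library on average, it ranked above 67.7%, 56.7% and 31.7% of genes in the same order. The TE of Hspg2 fell by 0.77 on the log2 scale in Arf-/- shSCR (SE 0.15, adjusted p = 0.0383 by edgeR). Hspg2 was the 1 member called, beside 0.194% of all 11314 genes tested, and 2 members passed an unadjusted p under 0.05. The call was lost in 5 of the 8 fits that left out a library, namely replicate 1 of WT-shSCR RNA and each of the 4 footprint libraries, with adjusted p up to 0.268 and log2 fold changes from -0.82 to -0.60 in those fits. In the WT-shARF-labelled libraries the TE of Hspg2 had a log2 fold change of -0.22 ± 0.15 SE, which was not called (adjusted p = 0.835).

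The TE of the other members passed no test. Lamb2 came next in Arf-/- shSCR at -0.56 ± 0.19 SE (unadjusted p = 0.00915, adjusted p = 0.453), with a ratio of footprint to RNA CPM of 1.48 in WT-shSCR and 1.01 in Arf-/- shSCR. In the WT-shARF-labelled libraries 0 members were called for TE, beside 0.0354% of all genes, and DESeq2 called 0 of the 5 members it gave an adjusted p, beside 8.85% of all genes it gave one. There 1 member passed an unadjusted p under 0.05, Lama2 at 0.77 ± 0.30 SE (adjusted p = 0.634). Lamb1 and Lama2, with pyrimidine-rich RefSeq starts, had TE log2 fold changes in Arf-/- shSCR of 0.03 ± 0.16 SE and 0.13 ± 0.32 SE. In WT-shSCR, Nid1, Nid2 and Lamc1 had ratios of 2.21, 2.01 and 1.85, above 91.1%, 88.5% and 85.5% of genes. Lama4 was lowest of the members at 0.721, above 25.5% of genes.

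Agrin is the proteoglycan that clusters acetylcholine receptors at the nerve-muscle junction and also lies in basement membranes elsewhere (Agrn, chr4:156165290-156197488, minus strand). Agrn footprints were 158 and 131 CPM in WT-shSCR, 113 and 96.5 CPM in the WT-shARF-labelled libraries, and 77.7 and 87.8 CPM in Arf-/- shSCR, and the groups did not overlap. They fell by 42.3% in Arf-/- shSCR (log2 fold change -0.79 ± 0.14 SE, adjusted p = 0.000109) and fell by 27.8% in the WT-shARF-labelled libraries (log2 fold change -0.47 ± 0.14 SE, adjusted p = 0.0254). DESeq2 did not call the latter, at an adjusted p of 0.0709, and it was lost without WT-shSCR replicate 1 or WT-shARF-labelled replicate 2 (adjusted p up to 0.336). Agrn RNA was 71.2 and 91.0 CPM in WT-shSCR and 40.4 and 52.8 CPM in Arf-/- shSCR, a log2 fold change of -0.79 ± 0.22 SE (adjusted p = 0.0321). DESeq2 gave this RNA change an adjusted p of 0.116, and leaving out either WT-shSCR library or Arf-/- shSCR replicate 1 one of up to 0.275. The RNA of the WT-shARF-labelled libraries stood at 83.1 and 59.3 CPM and overlapped WT-shSCR.

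The nidogens are sister glycoproteins that bind the laminin gamma chain and type IV collagen, and they moved in opposite directions. Nid1 (chr13:13437551-13512269, plus strand) had footprints of 1541 and 1409.9 CPM in WT-shSCR, 1121 and 1018 CPM in the WT-shARF-labelled libraries, and 1012 and 1069.9 CPM in Arf-/- shSCR. Both of the latter groups lay below WT-shSCR and overlapped each other. Nid1 footprints fell in both, with log2 fold changes of -0.49 ± 0.073 SE in Arf-/- shSCR (adjusted p = 6.84e-06) and -0.46 ± 0.072 SE in the WT-shARF-labelled libraries (adjusted p = 2.1e-05). Nid1 RNA was 682 and 653 CPM in WT-shSCR, 451 and 491 CPM in the WT-shARF-labelled libraries and 534 and 488 CPM in Arf-/- shSCR. It fell in the WT-shARF-labelled libraries (log2 fold change -0.51 ± 0.13 SE, adjusted p = 0.0113), a call that was lost without either WT-shARF-labelled RNA library (adjusted p up to 0.236). It was not called in Arf-/- shSCR at -0.39 ± 0.14 SE (adjusted p = 0.109).

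Nid2 (chr14:19751265-19811787, plus strand) had footprints of 118 and 98.1 CPM in WT-shSCR, 161 and 171 CPM in the WT-shARF-labelled libraries, and 176 and 209 CPM in Arf-/- shSCR. Every library of the other groups lay above both WT-shSCR libraries. Nid2 footprints rose 1.80-fold in Arf-/- shSCR (log2 fold change 0.85 ± 0.14 SE, adjusted p = 1.86e-05) and 1.54-fold in the WT-shARF-labelled libraries (log2 fold change 0.62 ± 0.13 SE, adjusted p = 0.00145). Its RNA was 52.3 and 54.8 CPM in WT-shSCR, 80.4 and 84.6 CPM in the WT-shARF-labelled libraries, and 95.03 and 76.0 CPM in Arf-/- shSCR. The RNA rose in the WT-shARF-labelled libraries (log2 fold change 0.62 ± 0.19 SE, adjusted p = 0.0380, and 0.142 by DESeq2). This call was also lost with all 3 groups in 1 fit (adjusted p = 0.0711), without WT-shSCR replicate 1 and without either WT-shARF-labelled library (adjusted p up to 0.307). In Arf-/- shSCR the RNA log2 fold change was 0.68 ± 0.21 SE with an adjusted p of 0.0508, and it was called in 4 of the 8 other settings of the test.

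Set against each other within a library, the nidogens shifted in RNA and in footprints. The ratio of Nid2 to Nid1 per kilobase was 0.0648 ± 0.00423 in WT-shSCR footprints, 0.138 ± 0.0151 in the WT-shARF-labelled libraries and 0.164 ± 0.0136 in Arf-/- shSCR. In RNA it was 0.0713 ± 0.00449, 0.156 ± 0.00384 and 0.148 ± 0.0140 in the same order. WT-shSCR overlapped neither of the other groups in RNA or in footprints. Nid1 remained the more abundant nidogen in every library. With 2 libraries a group, an exact permutation test of such a ratio cannot give a two-sided p below 0.33, so none is given.

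**Figure D4:**
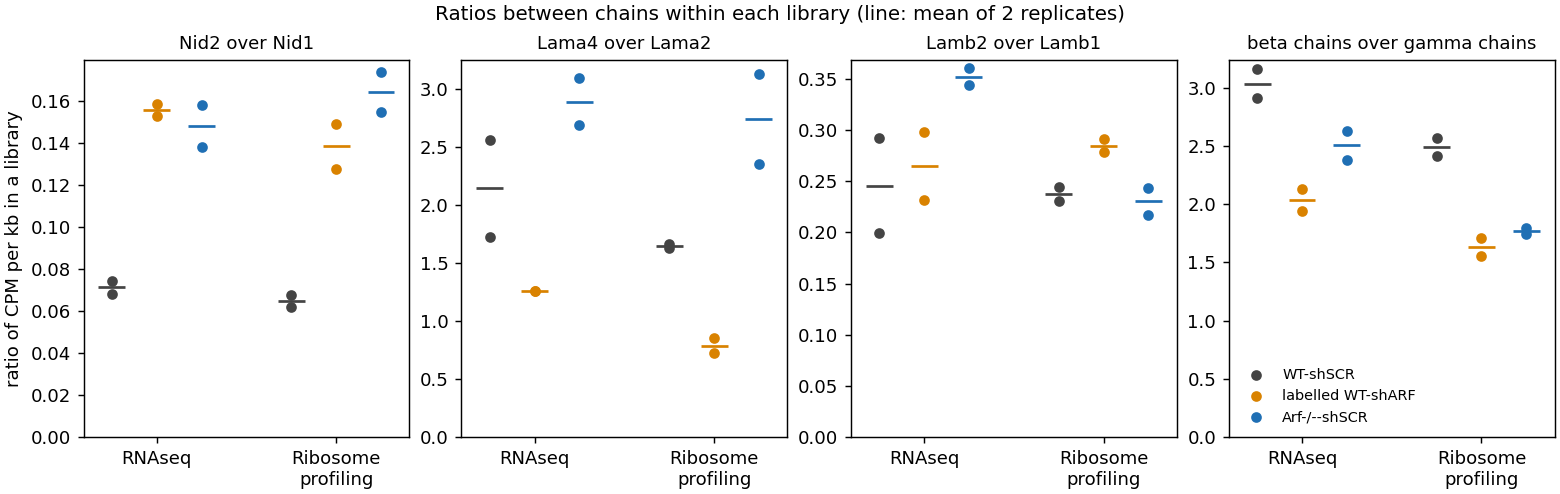
Ratios of CPM per kb within each library (vertical axis from 0) for Nid2 over Nid1, Lama4 over Lama2, Lamb2 over Lamb1, and both beta chains over the gamma 1 chain, in RNAseq and ribosome profiling. Points are libraries and lines means of 2 replicates. The Nid2 ratio is lowest in WT-shSCR, the beta to gamma ratio is highest in WT-shSCR, and the Lama4 ratio is lowest in the WT-shARF-labelled libraries and highest in Arf-/- shSCR.

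The laminin alpha chains set which cell surface receptors a laminin binds, and each had its own pattern. Lama5, the alpha chain of most adult epithelial and vascular basement membranes (chr2:180176373-180225859, minus strand), had footprints of 428 and 434 CPM in WT-shSCR, 372 and 349 CPM in the WT-shARF-labelled libraries, and 285 and 284 CPM in Arf-/- shSCR. The 3 groups did not overlap. Its footprints fell in Arf-/- shSCR (log2 fold change -0.58 ± 0.096 SE, adjusted p = 2.79e-05), while in the WT-shARF-labelled libraries the log2 fold change of -0.26 ± 0.090 SE had an adjusted p of 0.0607. Lama5 RNA was 248 ± 22.1 CPM in WT-shSCR and 201 ± 10.3 CPM in Arf-/- shSCR and was not called (adjusted p = 0.251).

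Lama4, the alpha chain of vessel walls and of fat and muscle interstitium (chr10:38965515-39110188, plus strand), had footprints of 43.3 and 43.0 CPM in WT-shSCR, 40.8 and 42.5 CPM in the WT-shARF-labelled libraries, and 80.6 and 72.1 CPM in Arf-/- shSCR. The Arf-/- shSCR libraries stood above all 4 others. Its footprints rose 1.79-fold in Arf-/- shSCR (log2 fold change 0.84 ± 0.18 SE, adjusted p = 0.000664). They were not called in the WT-shARF-labelled libraries, at -0.05 with a 95% interval from -0.48 to 0.39. Lama4 RNA was 64.8 and 54.8 CPM in WT-shSCR, 42.9 and 49.2 CPM in the WT-shARF-labelled libraries, and 95.8 and 73.9 CPM in Arf-/- shSCR. WT-shSCR lay between the other groups without overlap in RNA, though neither difference from it was called (adjusted p = 0.167 for Arf-/- shSCR and 0.289 for the WT-shARF-labelled libraries).

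Lama2, the alpha chain of muscle and peripheral nerve basement membranes (chr10:26980036-27619758, minus strand), had footprints of 44.6 and 45.3 CPM in WT-shSCR, 82.3 and 100.5 CPM in the WT-shARF-labelled libraries, and 44.2 and 52.6 CPM in Arf-/- shSCR. Here the WT-shARF-labelled libraries stood above all 4 others, and the other groups overlapped. Lama2 footprints rose 2.05-fold in the WT-shARF-labelled libraries (log2 fold change 1.03 ± 0.18 SE, adjusted p = 0.000145) and were not called in Arf-/- shSCR, at 0.12 with a 95% interval from -0.27 to 0.51. Its RNA rested on as few as 57 reads in a library, and WT-shSCR overlapped both other groups. The ratio of Lama4 to Lama2 per kilobase in footprints was 1.65 ± 0.0276 in WT-shSCR, 0.788 ± 0.0885 in the WT-shARF-labelled libraries and 2.74 ± 0.547 in Arf-/- shSCR, and no groups overlapped. The ratio of Lama5 to the sum of Lama2 and Lama4 per kilobase in footprints was 3.04 ± 0.0249, 1.87 ± 0.254 and 1.33 ± 0.0284 in the same order.

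The beta and gamma chains complete the trimer, and Lamb1 and Lamc1 occur in most laminins. Lamb1 (chr12:31265234-31329644, plus strand) had footprints of 1012 and 1062 CPM in WT-shSCR, 836 and 759 CPM in the WT-shARF-labelled libraries, and 677 and 747 CPM in Arf-/- shSCR. The groups did not overlap. Lamb1 footprints fell by 30.8% in Arf-/- shSCR (adjusted p = 6.82e-06) and fell by 23.1% in the WT-shARF-labelled libraries (adjusted p = 0.000644, and 0.0544 without replicate 2 of these). Lamb1 RNA was 633 and 750.2 CPM in WT-shSCR, 599 and 605 CPM in the WT-shARF-labelled libraries, and 459.47 CPM in both Arf-/- shSCR libraries. It fell in Arf-/- shSCR (log2 fold change -0.59 ± 0.15 SE, adjusted p = 0.0169), a call that was lost without either WT-shSCR library (adjusted p up to 0.237).

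Lamb2, the beta chain of the neuromuscular junction and the kidney filter (chr9:108479736-108490530, plus strand), had footprints of 229 and 255 CPM in WT-shSCR, 228 and 217 CPM in the WT-shARF-labelled libraries, and 162 and 159 CPM in Arf-/- shSCR. The Arf-/- shSCR libraries lay below all 4 others. The footprints fell by 33.1% there (log2 fold change -0.58 ± 0.12 SE, adjusted p = 0.000404). Lamb2 RNA overlapped between all groups, at 164 ± 24.5 CPM in WT-shSCR and 159 ± 5.21 CPM in Arf-/- shSCR.

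Lamc1, the gamma chain of most laminins (chr1:153218922-153332786, minus strand), had footprints of 446 and 441 CPM in WT-shSCR, 530.3 and 541 CPM in the WT-shARF-labelled libraries, and 399.8 and 448 CPM in Arf-/- shSCR. The libraries labelled WT-shARF were the highest, and Arf-/- shSCR lay on both sides of WT-shSCR. Lamc1 footprints rose by 0.27 ± 0.085 SE on the log2 scale in the WT-shARF-labelled libraries (adjusted p = 0.0310), a call that remained without replicate 1 of WT-shSCR and was lost without any of the other 3 libraries (adjusted p up to 0.263). In Arf-/- shSCR they had a log2 fold change of -0.05 with a 95% interval from -0.24 to 0.14. Lamc1 RNA was 237 and 243 CPM in WT-shSCR, 294 and 342 CPM in the WT-shARF-labelled libraries, and 215 and 199 CPM in Arf-/- shSCR. Its log2 fold change in the WT-shARF-labelled libraries was 0.41 ± 0.14 SE, not called (adjusted p = 0.0641 by edgeR). The TE log2 fold change there was -0.12 ± 0.16 SE. The ratio of both beta chains to Lamc1 per kilobase in footprints was 2.49 ± 0.110 in WT-shSCR, 1.63 ± 0.111 in the WT-shARF-labelled libraries and 1.77 ± 0.0353 in Arf-/- shSCR, and in RNA it was 3.03 ± 0.175, 2.04 ± 0.134 and 2.51 ± 0.176. WT-shSCR was highest without overlap in each assay. The ratio of the alpha chains to Lamc1 per kilobase was lowest in the WT-shARF-labelled libraries, at 0.443 ± 0.00304 in footprints against 0.556 ± 0.00917 in WT-shSCR and 0.513 ± 0.0413 in Arf-/- shSCR.

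The groups that lack ARF by genotype or carry the hairpin by label were also compared with each other. In Arf-/- shSCR against the WT-shARF-labelled libraries, 5 members were lower and 1 higher in footprints, beside 8.23% of all genes (4.3% lower, 3.93% higher), and 1 was lower and 1 higher in RNA, beside 2.57% of all genes (1.19% lower, 1.38% higher). In footprints Lama2 (-0.92 ± 0.16 SE), Lamb2 (-0.47 ± 0.10 SE), Hspg2 (-0.34 ± 0.047 SE), Lama5 (-0.33 ± 0.084 SE) and Lamc1 (-0.33 ± 0.078 SE) were lower in log2 terms, and Lama4 was higher (0.88 ± 0.16 SE), with adjusted p values from 9.81e-05 to 0.0178. In RNA Lama4 was higher (0.86 ± 0.19 SE, adjusted p = 0.0314) and Lamc1 lower (-0.63 ± 0.13 SE, adjusted p = 0.0257). With the replicate number as a block, 0 members were called in RNA, with adjusted p values of 0.0626 and 0.0629 for this pair of genes. For TE 0 members were called, beside 0.043% of all genes, with 3 at an unadjusted p under 0.05 and 0 by DESeq2, beside 0.49% of the genes it gave an adjusted p. Without either WT-shARF-labelled footprint library the calls of members in footprints were lost, as were nearly all calls over all genes. The median of the members was then -0.25 (without replicate 1) and -0.34 (without replicate 2), beside -0.33 with all libraries.

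Further lists covered other basement membrane genes, receptors, and enzymes that modify or cut these proteins, all pooled in this paragraph. They held 75 names, of which 74 were in the files. In Arf-/- shSCR footprints 60 of them were tested, and 24 fell and 3 rose, where 8.95% of all genes fell and 9.57% rose. In RNA 14 of 65 fell and 3 rose, where 3.99% of all genes fell and 3.94% rose. In the WT-shARF-labelled libraries 13 of 62 fell and 3 rose in footprints, where 5.5% of all genes fell and 5.63% rose, and 6 of 65 fell and 2 rose in RNA, where 4.17% fell and 3.11% rose. For TE 1 of 67 fell in Arf-/- shSCR, the laminin receptor chain Itga7 (-1.33 ± 0.28 SE, adjusted p = 0.0460).

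Among basement membrane collagens 4 of 6 tested fell and 0 rose in Arf-/- shSCR footprints. They included Col4a1 (-0.71 ± 0.066 SE, adjusted p = 1.01e-09) and Col4a2 (-0.81 ± 0.072 SE, adjusted p = 4.6e-10), the main type IV collagen chains, named after their values were seen. Of the other basement membrane and linker proteins, 6 of 11 fell and 1 rose. Fbln2, a fibulin that binds nidogen and laminin, fell in footprints in Arf-/- shSCR (-0.85 ± 0.058 SE, adjusted p = 9.83e-13) and in the WT-shARF-labelled libraries (-0.62 ± 0.051 SE, adjusted p = 1.42e-10). Fbln1, another fibulin, rose in Arf-/- shSCR RNA (2.15 ± 0.27 SE, adjusted p = 5.72e-05). Ntn4, a netrin that binds laminin, fell in RNA of the WT-shARF-labelled libraries (-1.06 ± 0.20 SE, adjusted p = 0.000977). Of the receptors 5 of 12 fell and 1 rose in Arf-/- shSCR footprints.

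The enzymes that build or trim heparan sulfate, the sugar chain of perlecan and agrin, had 5 of 16 lower and 0 higher in Arf-/- shSCR footprints. Of the enzymes that glycosylate dystroglycan, which gives it its hold on laminin and agrin, 0 of 6 were called there, and 1 of 7 rose in footprints of the WT-shARF-labelled libraries. Of the enzymes that cut members, 4 of 7 fell and 1 rose in Arf-/- shSCR footprints. The cathepsins led, with Ctsb (-1.20 ± 0.090 SE, adjusted p = 1.03e-11) and Ctsl (-1.02 ± 0.090 SE, adjusted p = 4.36e-10). Both also fell in footprints of the WT-shARF-labelled libraries, Ctsb by 0.89 and Ctsl by 0.75 on the log2 scale. Bmp1, a protease that trims laminin and perlecan, fell in RNA of those libraries (-0.72 ± 0.13 SE, adjusted p = 0.000647). Macrophages also express cathepsins, and the macrophage markers given above were lower in both groups than in WT-shSCR, a difference whose part in these values was not tested. The laminin chains Lama1, Lama3, Lamb3 and Lamc3 had between 0 and 67 counts in a library, and 0 of those tested were called by edgeR in any comparison.

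The genes whose 4 log2 fold changes (RNA and footprints, both comparisons with WT-shSCR) lay nearest to the medians of the members were sought among 4776 other genes with at least 100 counts per library on average. They were Spcs1, Trim24, Chpf, Akr7a5 and Tnks1bp1, at root mean square differences of 0.043, 0.050, 0.058, 0.061 and 0.061. Of the members, Lamb2 and Lama5 lay nearest to their own medians, at 0.078 and 0.099. Nid2 lay farthest, at 0.970, with 95.1% of the other genes nearer. The medians therefore describe few of the members closely, and the values of single genes above stand in their place.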

How the data were processed

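RNAseq and ribosome profiling were available for 12 libraries. The deposited values are read counts per gene made by the authors: adapters were clipped, barcodes and UMIs removed with UMI-tools and cutadapt, rRNA and ncRNA reads removed with Bowtie2, and the rest aligned to mm10 with TopHat and counted over coding sequence with HTSeq. Versions and UMI deduplication are not given in the sources used here, so counts may hold PCR copies. Footprints were cut with RNase T1. Reads with more than 1 alignment, which HTSeq sets aside, were between 79.2% and 81.4% of RNAseq records and between 46.3% and 52.9% of footprint records, and stayed out of library sizes. Raw counts were normalized by TMM and tested with edgeR 4.0.16 (glmQLFit, glmQLFTest, two-sided) on the groups compared, after filterByExpr, with Benjamini-Hochberg adjustment over all genes. TE was the interaction of assay and condition. The study's own design has the same term, fitted in DESeq2, which was used here (1.42.0) as an alternative. Scripts were tested on simulated data. Levels per kb used GENCODE M21 coding lengths, found for 95.9% of genes, and promoter windows came from RefSeq. Yeast spike-in reads were not used here. The members, the lists and the rule for named genes (all members, the 3 called list genes of smallest p in each comparison, and the 5 nearest genes) were chosen with earlier results of these data known. Outside this rule, Cdkn2a and cell type markers were named as checks, and Col4a1 and Col4a2 after their values were seen. A gene of the lists is not reported here.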

Additional observations from a re-analysis of the deposited data

Results flagged for a closer look

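The members whose level in Arf-/- shSCR differed from that in the WT-shARF-labelled libraries, by the edgeR test of this difference itself, were singled out. In RNA these were Lama4, with a log2 fold change of 0.86, and Lamc1, with -0.63. In footprints they were Lama2 at -0.92, Lama4 at 0.88, Lamb2 at -0.47, Hspg2 at -0.34, Lama5 at -0.33 and Lamc1 at -0.33. Neither group of this comparison is WT-shSCR, to which the changes of both groups were referred in the report. Strain, genotype, the hairpin given by the labels and the unexpected Cdkn2a level separate these groups in the same way and cannot be told apart. Groups of 2 are too small to test a single library as an outlier.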

How the results depend on the processing

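With 2 libraries a group and as few as 57 reads on a member, small changes in RNA and TE were not detectable. Medians of the members moved by less than their typical SE in all alternatives, between -0.55 and -0.45 for Arf-/- shSCR footprints and between -0.20 and -0.11 for its RNA. Removing the trend with coding length gave -0.48 for the former and, having no test, no count of calls. For Hspg2 it gave footprint changes of -0.64 and -0.28 (Arf-/- shSCR, WT-shARF-labelled libraries) and, in the latter, a TE change of -0.07. The number of members called in RNA was 2 in each comparison. It was 3 in Arf-/- shSCR against WT-shSCR with all 3 groups in 1 fit, unfiltered, with a minimum of 10 counts in each library, or with TMM factors made without ribosomal protein genes, and 3 in the WT-shARF-labelled libraries with at least 10 counts in every library or the replicate block. It was 1 with DESeq2 in both comparisons with WT-shSCR and 1 with all 3 groups in 1 fit in the WT-shARF-labelled libraries. With the replicate block it was 0 in Arf-/- shSCR against those libraries. The block changed the side of the threshold also of Lamc1 RNA and Lama5 footprints in the WT-shARF-labelled libraries, now called, and of no other member reported. Deviations of same-numbered libraries of an assay correlated between -0.031 and 0.026 over genes, so no pairing by replicate number was seen. This cannot exclude pairing, since noise in the counts of single genes can hide it. Pairing between RNAseq and footprint libraries was not checked. With no filter 1 member, Hspg2, was called for TE in Arf-/- shSCR against the WT-shARF-labelled libraries, against 0. Per kb over the union of coding exons, Lamc1 stood at 48.8 in WT-shSCR RNA, 90.3 in its footprints and 109.0 in footprints of the WT-shARF-labelled libraries, and Lamb2 at 29.0 in Arf-/- shSCR footprints.

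Calls over all genes also varied when a library was left out, so the ranges below are not read as particular to the members. Leaving out each library in turn gave these ranges of members called. Against WT-shSCR they were 0 to 3 (RNA), 0 to 8 (footprints) and 0 to 1 (TE) for Arf-/- shSCR, and 0 to 2, 4 to 6 and 0 for the WT-shARF-labelled libraries. Between these groups they were 0 to 3, 0 to 6 and 0 to 1. In RNA, 0 were left for Arf-/- shSCR without either WT-shSCR library and 1 without its own replicate 1, and 0 were left for the WT-shARF-labelled libraries without either of their own and 1 without WT-shSCR replicate 1. Without either WT-shARF-labelled RNA library 0 were left between the groups, and leaving out its replicate 1 or Arf-/- shSCR replicate 1 gave the 1 TE call.

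Some members changed sign, none of them called. Under other settings with a test these were Lama2 RNA in Arf-/- shSCR (0.00901, replicate block), Agrn TE there (0.00444 with upper quartile factors, 0.0938 unfiltered, 0.0295 with all 3 groups) and Nid2 TE in the WT-shARF-labelled libraries (-0.00896 with upper quartile factors, -0.00136 with at least 10 counts in every library). Removing the trend with coding length, which has no test, also changed the sign of Lama4 footprints (0.00159), Lama5 TE (0.0707), Lamb2 TE (0.0476) and the TE median of the members (0.0591) in the WT-shARF-labelled libraries, and of Agrn TE (0.0258) in Arf-/- shSCR. The TE median there, -0.00372, turned positive in every such setting but the minimum of 10 counts in each library, at up to 0.12 unfiltered. With a library left out, the log2 fold changes in Arf-/- shSCR ranged from -0.35 to 0.45 (Lama2), -0.18 to 0.11 (Lamb2) and -0.13 to 0.23 (Hspg2) in RNA, from -0.00197 to 0.245 (Lama2) and -0.13 to 0.0336 (Lamc1) in footprints, and from -0.35 to 0.46 (Lama2), -0.0880 to 0.17 (Lamb1), -0.19 to 0.00734 (Nid1) and -0.23 to 0.19 (Agrn) in TE. In the WT-shARF-labelled libraries they ranged from -0.0325 to 0.79 (Lama2), -0.27 to 0.11 (Lamb2), -0.34 to 0.0484 (Hspg2) and -0.43 to 0.0488 (Agrn) in RNA, and from -0.19 to 0.0205 (Lama5), -0.24 to 0.14 (Lamb2), -0.0374 to 0.12 (Nid1) and -0.12 to 0.15 (Nid2) in TE. For calls lost with DESeq2 or a library left out, the cause was not tested.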
